A study of Homo sapiens with 40 samples.

Results

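The difference between the early heregulin (HRG) response of trastuzumab-resistant BT474R cells and that of parental BT474 cells was measured in 8 of the 40 RNA libraries of the series, all taken 1 h after ligand or vehicle. The 8 libraries were chosen by line, ligand and time, and all 24641 genes that passed the filter on low counts entered the test. BT474 is a HER2-amplified luminal breast cancer line, and BT474R is its clone 5, which had grown out of BT474 kept in trastuzumab for several weeks. BT474R is therefore 1 clone of 1 line. Both lines were starved of serum overnight and then given HRG or vehicle (water) in fresh starvation medium, so the vehicle cells of both lines had the medium change too. Cells taken after starvation and before that change are called T0. Each of the 4 groups (BT474 vehicle, BT474 HRG, BT474R vehicle, BT474R HRG) had 2 libraries. The treatments were made in duplicate, but no source says that duplicates came from separate passages or days, so the p-values measure only the spread between these libraries, which may be technical.

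HRG is a growth factor that binds the receptors HER3 and HER4, which pair with HER2 and pass the signal to the RAS-MAP kinase and PI3 kinase pathways. Within the first hour such signals switch on immediate early genes, whose transcription factor products (the FOS, JUN and EGR families among them) act on later genes, together with phosphatases and RNA-binding proteins that end the response. Serum response factor (SRF) drives many of these genes, either with ETS-family partners downstream of MAP kinase or with actin-sensing partners, and it binds a short DNA element called the CArG box.

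Values are given as CPM (the count scaled to the TMM-normalised library size) in each library, replicate 1 before replicate 2, and changes as log2 ratios with their standard error (SE). The HRG response of a line is its log2 change of HRG against vehicle, and the interaction is the response of BT474R minus that of BT474, so a negative interaction means a smaller rise in BT474R. A gene was called when its adjusted p (edgeR's quasi-likelihood F test, Benjamini-Hochberg over all genes tested) was under 0.05. The 8 libraries held 20308115 to 33387936 counts, and 3 counts, taken as the detection limit, were at most 0.148 CPM. The 7 luminal markers summed to 6240-6590 CPM in BT474 and 5670-5930 CPM in BT474R, all 7 above the limit. GATA3, a luminal transcription factor, was at 425 to 490 CPM in BT474 but 44.1 to 55.5 CPM in BT474R, and EPCAM, an epithelial adhesion protein, at 175 to 191 CPM and 379 to 388 CPM. The 4 mesenchymal markers summed to 112-137 CPM in BT474 and 211-236 CPM in BT474R with COL1A2 at the limit, and the 2 endothelial markers to 1.18-2.49 CPM and 6.1-7.61 CPM with PECAM1 at the limit. The 3 basal markers summed to 5.38-6.33 CPM and 1.82-3.26 CPM with KRT14 at the limit, and the 3 leukocyte markers to 1.49-2.53 CPM and 1.06-2.11 CPM with PTPRC and CD3E at the limit. No marker of these lists had a called interaction, and the part of the marker differences in the results below was not tested.

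The early HRG response was smaller in BT474R. In HRG-BT474, 459 genes rose (1.86% of all genes tested) and 83 fell (0.337%), and in HRG-BT474R 63 rose (0.256%) and 5 fell (0.0203%). The interaction itself was called for 134 genes (0.544%), with 122 lower in BT474R (0.495%) and 12 higher (0.0487%), while the median interaction of all genes was 0.00. All 122 genes lower in BT474R were among the 459 induced in BT474, and 36 of them were still called as induced in BT474R. The 122 hold 113 plain names and 9 repeats of a gene name with a number added, most of them of RNF39. For IER3 repeats were called, but the plain name was not (adjusted p = 0.691). Of the 459, 122 (26.6%) had a called interaction and 337 did not, though the estimate was lower in BT474R for 451 (98.3%). Over all genes tested, 51% had a lower estimate. The BT474 rise that chose the 459 enters the interaction with a minus sign. Both the 98.3% and the place of the 122 among the 459 are therefore in part fixed by that choice. With 2 libraries in each group, the 337 cannot be read as responding alike. In all 122 the 4 HRG-vehicle differences of BT474R lay below the 4 of BT474, a pattern that 11.8% of all genes showed, and in all 12 they lay above (10.3% of all genes). As these differences come from the same libraries that called the genes, this separation is in part fixed by the calls. The number of called genes depended on single libraries, and was 80 without the second BT474R vehicle library, 86 without the second BT474 vehicle library and 89 without the first BT474 HRG library. For the response of BT474R alone it was 35 without the first and 45 without the second BT474R vehicle library, and for BT474 alone 332 without the second vehicle library and 344 without the first HRG library. In bulk RNA, fewer responding cells and less RNA in each cell cannot be told apart.

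**Figure D1:**
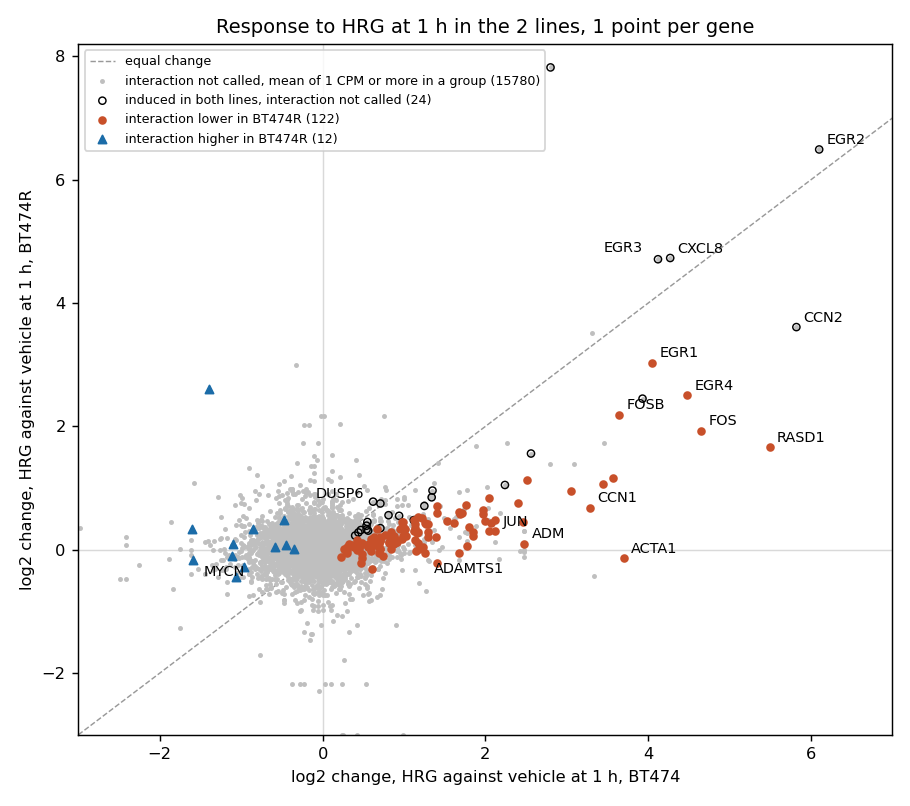
Log2 change of HRG against vehicle at 1 h in BT474 (horizontal axis) and BT474R (vertical axis), 1 point per gene; the dashed line marks an equal change. Grey points are the 15780 genes not called whose mean reached 1 CPM in a group, 9 of them outside the axes. Orange points are the 122 genes lower in BT474R, which lie below the line and mostly near 0 on the vertical axis, blue triangles the 12 higher, and open circles the 24 genes induced in both lines with no called interaction, EGR2, EGR3, CCN2 and DUSP6 among them.

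The genes were divided by how much of the response was left in BT474R. A response was described as lost where BT474R was not called and the 95% limit of its log2 change nearest to the BT474 change stayed below 0.5 of that change. By this description 74 of the 122 induced genes had lost the response and the other 48, of which 36 were still called as induced in BT474R, were described as weaker. The share of the BT474 log2 response found in BT474R had a median of 13% in the 74 (from -53.4% to 31.2%) and 34.4% in the 48 (from 14.3% to 74.8%). Lost does not mean absent. The 95% interval of the BT474R change lay above 0 for some of the 74, such as AREG (0.45 to 1.45) and PTGER4 (0.22 to 0.68). For others, such as ADAMTS1 (-0.27 to 0.18), it spanned 0. These classes use the same values as the interaction and describe it. Genes just inside the threshold were SYCE2 (interaction -0.80, SE 0.20) and ZC3H12A (-0.55, SE 0.14), and just outside it were ETF1 (-0.25, SE 0.06) and LMCD1 (-0.67, SE 0.17).

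The fixed list of 31 immediate early transcription factors held 17 genes with a lower interaction and 1 (ID2) with a higher one, against 0.495% and 0.0487% of all genes. The lists were written for early growth factor responses, and 24 of these 31 genes were induced in BT474. Of all 459 genes induced in BT474, 26.6% had a called lower interaction. Its median response was 1.62 in BT474 and 0.43 in BT474R, and its median interaction -0.89. FOS, a subunit of the AP-1 transcription factor, was at 4.99 and 5.88 CPM with vehicle and 138 and 136 CPM with HRG in BT474, and at 3.81 and 3.25 CPM with vehicle and 15.2 and 11.4 CPM with HRG in BT474R. FOS was lower in BT474R in both conditions, slightly with vehicle and far lower with HRG (interaction -2.72, SE 0.29, adjusted p = 5.24e-08). Its AP-1 partner JUN went from 127 and 106 CPM to 515 and 495 CPM in BT474, and from 122 and 136 CPM to 168 and 151 CPM in BT474R. The vehicle libraries of the lines overlapped for JUN and its HRG libraries did not (interaction -1.82, SE 0.10, adjusted p = 1.56e-15), and the rise left in BT474R was 0.30 (SE 0.07).

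ATF3, a stress- and mitogen-induced factor, rose from 12 and 8.57 CPM to 126 and 118 CPM in BT474, against 10.9 and 14.2 CPM to 30.9 and 25.6 CPM in BT474R (interaction -2.41, SE 0.28). EGR1, a zinc-finger factor, went from 78.3 and 81.8 CPM to 1350 and 1300 CPM in BT474, and from 22.7 and 18.3 CPM to 191 and 141 CPM in BT474R. Both genes were induced in both lines, but EGR1 kept more of its response, with 4.05 (SE 0.11) in BT474 and 3.03 (SE 0.12) in BT474R (interaction -1.02, SE 0.15, adjusted p = 5.88e-05). Its relative EGR4 had an interaction of -1.97 (SE 0.37), which was not called without the second BT474R vehicle library. The AP-1 genes FOSB (-1.45), JUNB (-1.20) and JUND (-0.59), the nuclear receptors NR4A1 (-1.38) and NR4A2 (-1.04), and IER2 (-1.07), MAFF (-1.64), CSRNP1 (-1.19), KLF6 (-1.01), KLF2 (-0.89), SRF (-0.81) and MYC (-0.85) made up the rest of the 17. Of the 17, JUND and KLF2 had lost the response and the others were weaker, all but MYC still called as induced in BT474R.

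MYC, a growth-promoting factor, differed from most of these genes before HRG. It was at 51 and 54 CPM with vehicle and 122 and 131 CPM with HRG in BT474, and at 9.09 and 7.68 CPM and then 11.6 and 10.6 CPM in BT474R. All 4 BT474R libraries lay below all 4 of BT474, and the change was 1.27 (SE 0.08) in BT474 and 0.42 (SE 0.11), not called, in BT474R. Set against T0 in place of vehicle, the MYC interaction turned to 0.13 (adjusted p = 0.899) and that of RHOB to 0.05 (adjusted p = 0.916), and FOSB, EGR4, AREG and KLF7 were among the genes no longer called. In both lines vehicle cells lay above T0 in most of the 122 genes, 109 in BT474 and 105 in BT474R, with a median difference of 0.31 in each. Over all genes tested, 48.3% lay above T0 in BT474 and 51.2% in BT474R, with medians of -0.01 and 0.01.

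**Figure D2:**
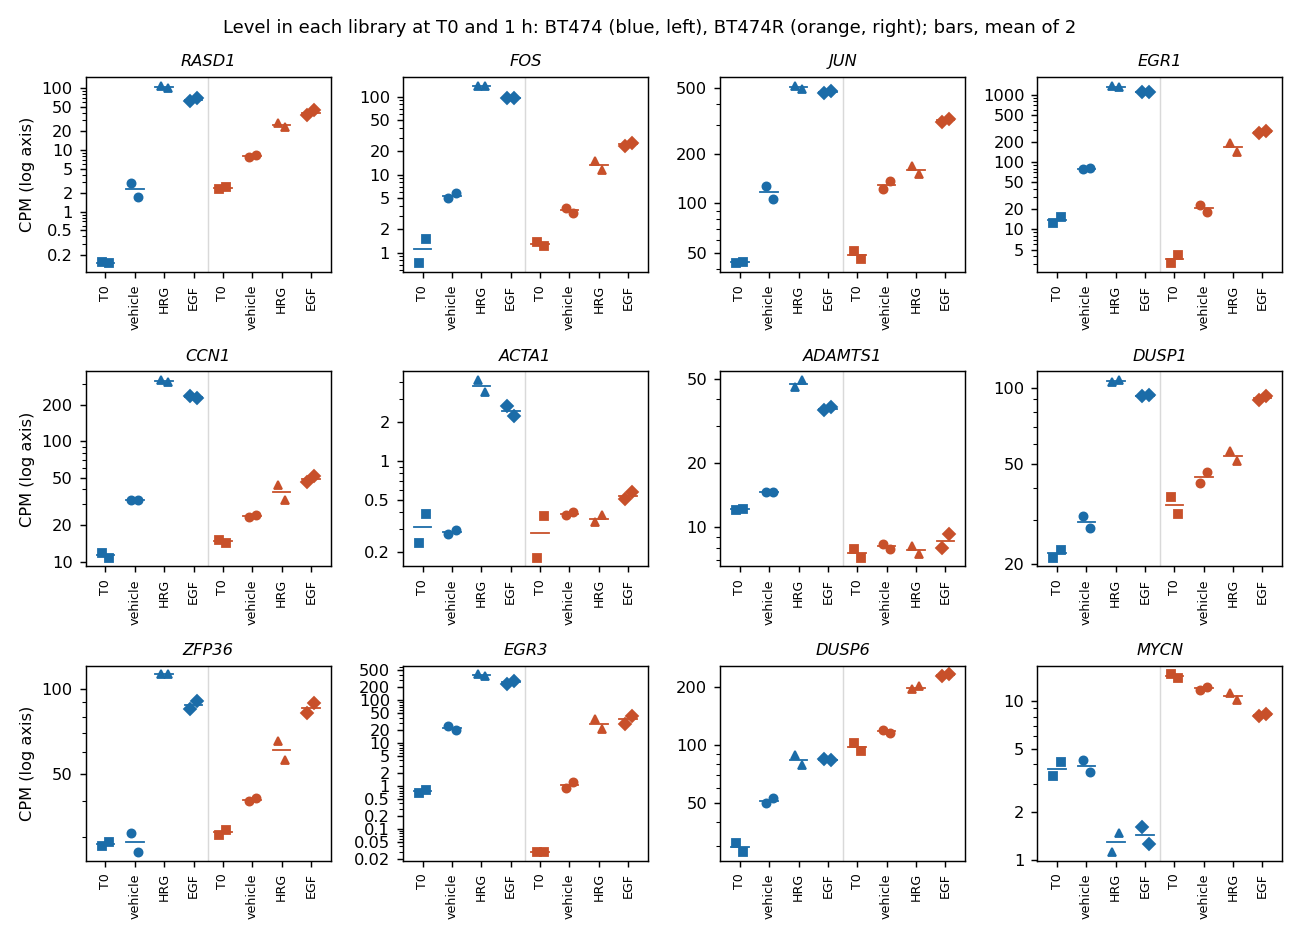
CPM (log axis) of 12 genes in each library at T0 and 1 h, BT474 in blue on the left and BT474R in orange on the right of each panel, with short bars for the mean of 2 libraries; EGR3 had 0 counts at T0 in BT474R and is drawn at the bottom of its axis. FOS reached 138 and 136 CPM with HRG in BT474 and 15.2 and 11.4 CPM in BT474R, ADAMTS1 stayed between 7.53 and 8.37 CPM in the BT474R vehicle and HRG libraries, and DUSP6 rose in both lines.

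Some early genes were induced in both lines. EGR2, EGR3, DUSP6 and SPRY4 were picked after their values were seen, from the 24 genes induced in both lines with no called interaction (21 of them under plain names). EGR3 went from 24.9 and 20 CPM to 402 and 378 CPM in BT474 and from 0.931 and 1.24 CPM to 36.1 and 21.6 CPM in BT474R. Its levels did not overlap between the lines, yet its log2 response was 4.12 (SE 0.15) in BT474 and 4.71 (SE 0.25) in BT474R, and the 95% interval of the interaction ran from -0.16 to 1.33. EGR2 was likewise at 201 and 186 CPM with HRG in BT474 and at 16.8 and 9.65 CPM in BT474R, with responses of 6.10 (SE 0.17) and 6.49 (SE 0.35) and an interval from -0.97 to 1.74. The BT474R vehicle libraries held only 6 and 2 EGR2 counts (0.254 and 0.062 CPM, against 3.07 and 2.56 CPM in BT474), so its response in BT474R rests on a baseline near the detection limit. For these factors the level after HRG was lower in BT474R, and a difference in log2 response was not detectable at this depth. The AP-1 gene FOSL1 (-1.19, SE 0.32, adjusted p = 0.101) and the nuclear receptor NR4A3 (-1.48, SE 0.52, adjusted p = 0.459) did not pass the test.

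The MAP kinase and receptor feedback list was split. Of its 22 genes, 7 had a lower interaction (0.495% of all genes), namely DUSP1, DUSP2, DUSP4, DUSP5, DUSP10, DUSP14 and ERRFI1. None had a higher one (0.0487% of all genes), and the median interaction was -0.17. In BT474, 12 of the 22 were induced. DUSP1, a nuclear phosphatase that switches off MAP kinases, went from 31 and 27.9 CPM to 105 and 107 CPM in BT474, and from 42 and 46.3 CPM to 56.3 and 51.1 CPM in BT474R. DUSP5, which acts on ERK in the nucleus, went from 9.94 and 11.1 CPM to 38.4 and 34.5 CPM in BT474 and from 20.4 and 20.3 CPM to 27.5 and 24.8 CPM in BT474R. Both began higher in BT474R and ended lower, the interactions being -1.57 (SE 0.15) for DUSP1 and -1.43 (SE 0.14) for DUSP5. DUSP6, the cytoplasmic ERK phosphatase, rose from 49.8 and 52.9 CPM to 88.6 and 79.2 CPM in BT474 and from 120 and 116 CPM to 195 and 202 CPM in BT474R. SPRY4, an inhibitor of RAS signalling, rose from 19.8 and 20.2 CPM to 30.7 and 30.8 CPM and from 67.3 and 63.7 CPM to 113 and 111 CPM. Both of these lay higher in every BT474R library than in any BT474 library, and the interaction had a 95% interval from -0.22 to 0.30 for DUSP6 and from -0.14 to 0.45 for SPRY4. ERRFI1, which binds and inhibits ERBB receptors, had an interaction of -0.70 (SE 0.10), while DUSP2 (-1.63), DUSP10 (-0.54) and DUSP14 (-0.30) each lost their call in 4 or more of the fits that left out 1 of the 8 libraries.

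RNA-binding proteins that direct early transcripts to decay were lower as well. All 3 members of the ZFP36 family had a lower interaction. They were 3 of the 8 genes of the mRNA decay and antiproliferative list (0.495% of all genes), and none was higher (0.0487%). ZFP36 rose from 31 and 26.5 CPM to 113 and 113 CPM in BT474 and from 40.2 and 41 CPM to 65.5 and 56.3 CPM in BT474R (interaction -1.39, SE 0.11, adjusted p = 4.87e-11). The interaction was -0.65 (SE 0.07) for ZFP36L1 and -0.79 (SE 0.12) for ZFP36L2, which had lost its response. BTG1, an antiproliferative gene, stood at -0.30 (SE 0.08, adjusted p = 0.0864).

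**Figure D3:**
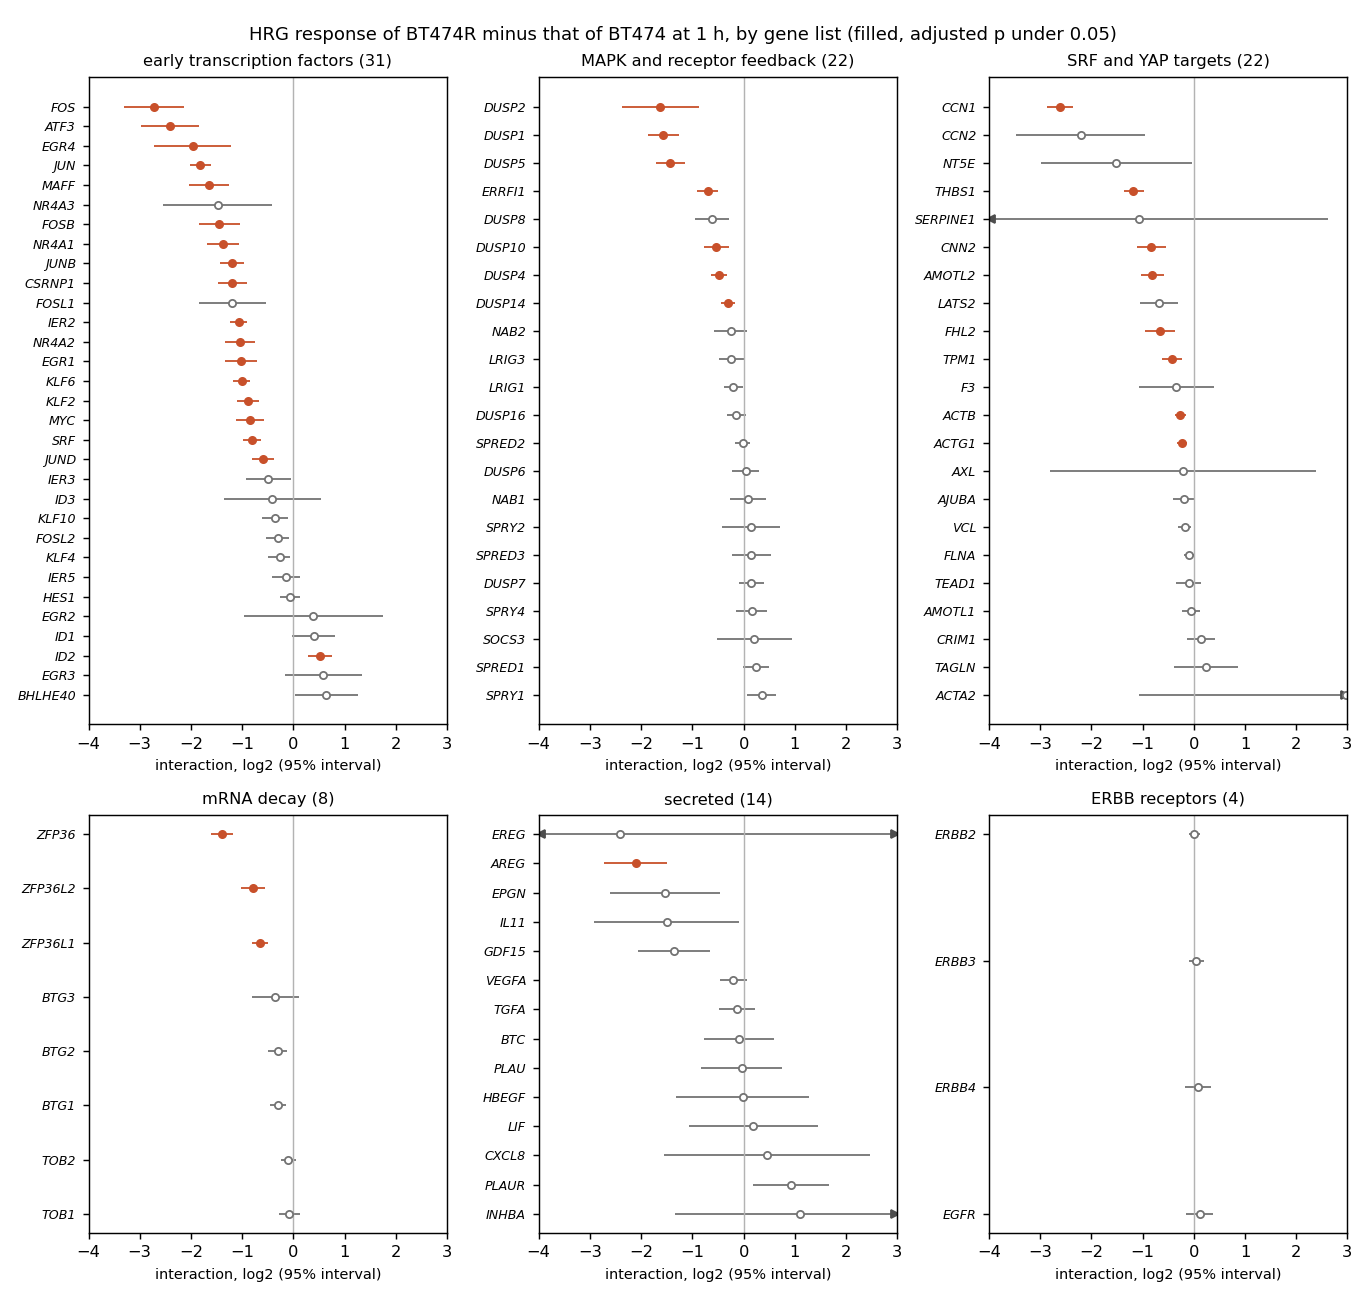
Interaction (HRG response of BT474R minus that of BT474, log2) with its 95% interval for every tested gene of 6 lists; filled points have an adjusted p under 0.05, and arrowheads mark intervals that run past the axis. The 17 early transcription factors, 7 feedback genes, 8 SRF and YAP targets and 3 decay genes that were called lower lie left of 0, ID2 lies right of it, and all 4 ERBB receptors lie near 0.

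Of the SRF and YAP target list, 8 of 22 tested genes were lower (0.495% of all genes) and none was higher (0.0487%). The median interaction of the list was -0.30. CCN1, a matricellular protein, went from 32.7 and 32.2 CPM to 322 and 312 CPM in BT474, and from 23.4 and 24.3 CPM to 43.5 and 32.6 CPM in BT474R, the smallest adjusted p of all genes (interaction -2.61, SE 0.12, adjusted p = 3.06e-17). Its relative CCN2 went from 11.9 and 8.83 CPM to 605 and 562 CPM in BT474 but only from 0.127 and 0.341 CPM to 4.03 and 2.08 CPM in BT474R. The levels of CCN2 in BT474R thus stayed below those of BT474 vehicle cells, while its interaction of -2.21 (SE 0.62) missed the threshold (adjusted p = 0.145). THBS1, a secreted glycoprotein of the matrix, began at the same level in both lines (76 and 76 CPM, 74 and 77.6 CPM) and reached 206 and 192 CPM in BT474 but 89.3 and 86.3 CPM in BT474R (interaction -1.18, SE 0.09).

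The actin-related genes of this list, and ACTA1 beside them, had no called HRG response in BT474R. ACTG2, another actin gene outside the list, was induced in both lines, by 2.56 (SE 0.49) in BT474 and 1.56 (SE 0.36) in BT474R. Its interaction was not called, and it was low, at 0.211 and 0.681 CPM and then 1.68 and 1.14 CPM in BT474R. ACTA1, the skeletal muscle actin, rose from 0.275 and 0.294 CPM to 4.16 and 3.35 CPM in BT474 and was at 0.381 and 0.403 CPM and then 0.336 and 0.379 CPM in BT474R (interaction -3.84, SE 0.68, adjusted p = 0.000827). Actin genes share much of their coding sequence and the handling of reads with several matches is not stated, so ACTA1 counts are uncertain; ACTB, the abundant cytoplasmic actin, rose by 0.30 (SE 0.04) in BT474 and ACTA1 by 3.70 (SE 0.39). CNN2, an actin-binding calponin, went from 4.4 and 3.99 CPM to 7.24 and 7.75 CPM in BT474, and in BT474R was at 144 and 148 CPM with vehicle and 156 and 138 CPM with HRG (interaction -0.83, SE 0.14). CNN2 was far higher in BT474R in every library, and its 2 conditions overlapped there. FHL2, a LIM-domain cofactor of SRF, rose from 6.87 and 5.25 CPM to 13 and 10.9 CPM, against 25.6 and 26.1 CPM to 32.4 and 32.6 CPM in BT474R (interaction -0.65, SE 0.14). The conditions of FHL2 did not overlap in BT474R, where its change of 0.33 (SE 0.08) was not called. The interactions of ACTB (-0.26, SE 0.05), ACTG1 (-0.23, SE 0.05) and TPM1 (-0.43, SE 0.10) were small, and the calls of FHL2, ACTB, ACTG1 and TPM1 were each lost in 1 or more of the fits that left out a library.

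The promoters of ACTA1, CNN2, FHL2, SRF and EGR1 are shown because they hold a CArG box, written in capitals, within 250 bases before to 50 after the start of the gene. A CArG box was found on either strand in 11 of the 93 promoters (11.8%) that RefSeq gives for the genes lower in BT474R, namely ACTA1, FHL2, RND3, FILIP1L, EGR1, SRF, ACTG1, CNN2, TPM4, ZNF548 and RCAN1. It was found in 4 of 238 promoters (1.68%) of the genes induced in BT474 with no called interaction and in 166 of 15307 promoters (1.08%) of all genes tested. For the genes induced in both lines with no called interaction it was 1 of 15 (6.67%), that of ACTG2. Among the genes lower in BT474R it was 6 of 54 (11.1%) for the lost and 5 of 39 (12.8%) for the weaker ones. These sets were not matched for the size of their rise in BT474. The sequences are from RefSeq on GRCh38.p14, 5′ to 3′ on the strand of the gene, at chr1:229434045-229434344 (minus strand) for ACTA1, chr19:1026358-1026657 (plus strand) for CNN2, chr2:105438464-105438763 (minus strand) for FHL2, chr6:43171019-43171318 (plus strand) for SRF and chr5:138465229-138465528 (plus strand) for EGR1.
ACTA1: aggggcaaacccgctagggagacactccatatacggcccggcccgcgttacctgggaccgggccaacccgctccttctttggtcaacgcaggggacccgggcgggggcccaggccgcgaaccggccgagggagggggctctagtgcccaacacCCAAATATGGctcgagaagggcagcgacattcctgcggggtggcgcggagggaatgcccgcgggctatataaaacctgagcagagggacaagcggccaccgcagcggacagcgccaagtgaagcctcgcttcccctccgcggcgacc
CNN2: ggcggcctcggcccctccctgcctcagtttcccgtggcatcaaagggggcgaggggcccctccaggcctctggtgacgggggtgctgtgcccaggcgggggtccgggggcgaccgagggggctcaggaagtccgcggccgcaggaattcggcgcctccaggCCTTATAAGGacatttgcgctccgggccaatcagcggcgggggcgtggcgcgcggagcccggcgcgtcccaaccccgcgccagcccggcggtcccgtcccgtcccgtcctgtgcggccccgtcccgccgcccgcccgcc
FHL2: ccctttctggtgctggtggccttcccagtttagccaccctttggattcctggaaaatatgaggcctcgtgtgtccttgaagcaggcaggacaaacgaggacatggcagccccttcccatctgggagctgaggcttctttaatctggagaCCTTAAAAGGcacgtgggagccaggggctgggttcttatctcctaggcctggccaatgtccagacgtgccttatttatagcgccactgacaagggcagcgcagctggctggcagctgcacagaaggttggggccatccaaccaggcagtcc
SRF: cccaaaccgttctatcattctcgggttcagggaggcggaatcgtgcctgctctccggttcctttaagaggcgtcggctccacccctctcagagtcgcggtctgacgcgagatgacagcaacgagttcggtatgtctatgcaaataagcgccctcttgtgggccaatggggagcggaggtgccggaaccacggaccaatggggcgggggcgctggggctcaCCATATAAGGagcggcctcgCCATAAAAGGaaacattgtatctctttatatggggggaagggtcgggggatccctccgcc
EGR1: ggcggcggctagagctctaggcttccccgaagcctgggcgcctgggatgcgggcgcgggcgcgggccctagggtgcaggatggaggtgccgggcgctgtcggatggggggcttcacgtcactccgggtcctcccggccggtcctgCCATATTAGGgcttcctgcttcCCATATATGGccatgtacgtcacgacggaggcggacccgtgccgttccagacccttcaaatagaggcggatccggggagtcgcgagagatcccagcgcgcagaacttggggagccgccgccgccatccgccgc
A match is only a run of letters, and binding was not measured here. Among the same 93 promoters, the cyclic AMP response element TGACGTCA stood in 9 (9.68%, against 2.74% of all genes tested), AREG, DUSP1, JUND and MAFF among them. The AP-1 motif TGANTCA stood in 2 (2.15%, against 5.64%), the TEAD motif GGAATG in 10 (10.8%, against 12.1%), the ETS motif CCGGAAGT in 8 (8.6%, against 6.72%) and the EGR motif GCGGGGGCG in 13 (14%, against 7.21%), each searched on both strands. SRF itself, whose promoter has 2 CArG boxes, went from 78.1 and 71.8 CPM to 163 and 162 CPM in BT474 and from 67 and 70.3 CPM to 90.1 and 80.7 CPM in BT474R (interaction -0.81, SE 0.09).

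Genes for secreted and signalling proteins were also called. RASD1, a RAS-related small GTPase, had the largest response of the 122, from 2.93 and 1.72 CPM to 108 and 99.6 CPM in BT474 and from 7.57 and 8.27 CPM to 27 and 23.2 CPM in BT474R (interaction -3.83, SE 0.19, adjusted p = 5.55e-17). RASD1 thus began higher and ended lower in BT474R, with no overlap between the lines in either condition. EDN1, the vasoactive peptide endothelin 1, rose from 8.24 and 7.57 CPM to 90.5 and 80.7 CPM, against 9.81 and 10.1 CPM to 23.7 and 17.9 CPM (interaction -2.37, SE 0.19). AREG, an EGFR ligand, rose from 5.27 and 3.83 CPM to 36.9 and 38.3 CPM in BT474 and stood at 1.18 and 1.15 CPM with vehicle and 2.92 and 1.51 CPM with HRG in BT474R. Every BT474R library lay below every BT474 library for AREG (interaction -2.10, SE 0.30, adjusted p = 2.6e-05), the only called gene of the 14 tested in the list of secreted ligands and proteolysis.

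ADAMTS1, a secreted protease of the matrix, was a clear case of a lost response. It rose from 14.7 and 14.6 CPM to 45.4 and 49.1 CPM in BT474 and was at 8.37 and 7.9 CPM and then 8.16 and 7.53 CPM in BT474R (interaction -1.73, SE 0.14, adjusted p = 1.39e-10). PTGER4, a prostaglandin E2 receptor, rose from 6.27 and 5.21 CPM to 33.2 and 29.9 CPM, against 13.2 and 12.7 CPM to 19.3 and 15.9 CPM, and its change in BT474R of 0.45 (SE 0.11) was not called. ADM, the peptide hormone adrenomedullin, went from 4.44 and 3.91 CPM to 23.3 and 23.1 CPM in BT474 and from 1.27 and 1.02 CPM to 1.07 and 1.36 CPM in BT474R. The ADM interaction of -2.38 (SE 0.51, adjusted p = 0.0132) lost its call in 4 of the 8 fits that left out a library. Of the list of small GTPases, kinases and survival genes, 6 of 16 were lower (0.495% of all genes). Among them were PLK2 (-0.64, SE 0.09), a stress-induced kinase, RHOB (-0.49, SE 0.07), a small GTPase, and MCL1 (-0.72, SE 0.07), an anti-apoptotic BCL2 relative.

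The 12 genes higher in BT474R mostly fell with HRG in BT474. In BT474 10 of them were called as repressed, and 1 (ARRDC3) was called as repressed in BT474R. MYCN, a MYC relative, fell from 4.26 and 3.61 CPM to 1.13 and 1.48 CPM in BT474 and was at 11.8 and 12.3 CPM and then 11.3 and 10.1 CPM in BT474R (interaction 1.42, SE 0.28, adjusted p = 0.00451). The conditions of MYCN did not overlap in either line, but its change in BT474R was -0.17 (SE 0.13) and not called. TXNIP, a glucose-sensitive inhibitor of thioredoxin, fell from 292 and 302 CPM to 237 and 229 CPM in BT474 and was at 337 and 322 CPM and then 317 and 352 CPM in BT474R (interaction 0.37, SE 0.08). The BMP-responsive factor ID2 (0.52, SE 0.12), the lineage factor SOX9 (0.62, SE 0.13), the kinase NUAK2 (1.01, SE 0.23) and the RAS-like RASL11B (1.20, SE 0.22) likewise fell in BT474 and had no called change in BT474R, as did PACSIN1 (0.68, SE 0.14), GUCA1B (1.93, SE 0.48) and LOC102724488 (1.18). ARRDC3 (0.62, SE 0.13) fell in both lines, by 1.06 on the log2 scale in BT474 and 0.44 in BT474R. LOC107985544 (0.95, SE 0.22) was called in neither line, with changes of -0.47 in BT474 and 0.49 in BT474R. The remaining gene, LOC107986016, stayed below 1 CPM in all 4 groups, at the detection limit in BT474R vehicle cells. Each of the 12 lost its call under 1 or more of the alternatives, and with T0 as the control ARRDC3 turned to -0.69 (adjusted p = 0.00143) and TXNIP to -0.01.

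No gene of 4 further lists had a called interaction, where edgeR's quasi-likelihood test gave 1615 genes in all at an unadjusted p under 0.05. The lists were 4 ERBB receptors, 42 ERBB signal transducers, 9 ETS factors and 15 NF-kB genes tested. In BT474 HRG called 1 ETS factor and 1 NF-kB gene as induced, 1 NF-kB gene as repressed and no receptor or transducer. With so few responses in BT474, the test could hardly show a loss here. NFKBIA fell in both lines, with called changes of -0.54 in BT474 and -0.27 in BT474R. The 42 transducers had a median interaction of -0.05, the NF-kB genes 0.01 and the ETS factors 0.02. The Kruppel-like factors were lower in 3 of 13 genes (KLF2, KLF6 and KLF7), against 0.495% of all genes. The FOXO and insulin feedback list was lower in 3 of 22 (IRS2, BCL6 and TP53INP2), with 1 higher (TXNIP, against 0.0487% of all genes). IRS2, an adaptor of the insulin receptor, had an interaction of -0.69 (SE 0.17), which ranged from -0.99 without the first BT474 vehicle library to -0.43, with 2 of 8 such fits past the threshold.

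The receptor transcripts differed between the lines without HRG. EGFR was at 68.3 and 63.4 CPM with vehicle and 63.5 and 66.3 CPM with HRG in BT474, and at 695 and 745 CPM and then 690 and 849 CPM in BT474R. ERBB4, a receptor of HRG, was at 33.8 and 29.3 CPM and then 33.9 and 36.5 CPM in BT474, and at 10.4 and 10.8 CPM and then 12.5 and 12.5 CPM in BT474R. With vehicle, EGFR was higher in BT474R by 3.45 on the log2 scale, ERBB3 by 0.46 and ERBB2 by 0.34, and the ERBB4 difference was -1.57, all called, as were 50.2% of all genes in that comparison. The interaction was 0.12 (SE 0.13) for EGFR, 0.01 (SE 0.05) for ERBB2, 0.05 (SE 0.07) for ERBB3 and 0.08 (SE 0.13) for ERBB4. Among the 122 genes themselves, 35 were lower in BT474R with vehicle (background 23.7%), 56 were higher (26.4%) and 31 were not called, with a median of 0.16. The level reached after HRG lay below that of BT474 in both BT474R libraries for 95 of the 122 (34.7% of all genes tested), above it for 21 (36.9% of all genes; DUSP4, PLK2, CNN2 and FHL2 among the 21) and overlapped for 6.

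EGF, a ligand of EGFR, was given in parallel at 1 h and shares its vehicle libraries with HRG. By mass, the concentration of EGF was higher than that of HRG, so ligand and dose cannot be told apart. In BT474R, EGF raised 63 of the 122 genes (0.593% of all genes) and HRG 36, and in BT474 EGF raised 117 (1.57%). The median change of the 122 was 0.82 with EGF and 0.99 with HRG in BT474, and 0.30 with EGF and 0.17 with HRG in BT474R. As the 122 were chosen by their HRG values, the order of the ligands in these counts and medians is in part fixed by that choice. The EGF response was itself called lower in BT474R for 31 of the 122 (0.134% of all genes tested), and its estimate was lower for 117. Both interactions use the same vehicle libraries, so these counts too are in part fixed by the choice of the 122. CCN1 (EGF interaction -1.81, adjusted p = 2.63e-12) and RASD1 (-2.48, adjusted p = 6.31e-11) were among the 31. Whether the difference between the lines differed between the ligands was tested directly as HRG against EGF, with no vehicle library. That test called 33 genes lower (0.134%) and 1, GUCA1B, higher (0.00406%), and 29 of the 33 were among the 122, which were chosen with the same HRG libraries. It called 17 genes without the second BT474R HRG library, 20 without the second BT474R EGF library, 21 without the first BT474 HRG library and 22 without the first BT474 EGF library. JUN rose by 2.12 with HRG and 2.03 with EGF in BT474, but by 0.30 with HRG and 1.30 with EGF in BT474R (HRG against EGF -1.09, adjusted p = 7.54e-09). EGR1 changed by 3.78 with EGF in BT474 and 3.77 in BT474R, against 4.05 and 3.03 with HRG (HRG against EGF -1.02, adjusted p = 2.72e-05). KLF2 (1.18 and 1.05 with EGF), RHOB (0.70 and 0.70) and MYC (1.00 and 0.92) were of the same kind, with HRG-against-EGF values of -0.76, -0.50 and -0.78. ADAMTS1 changed by 1.30 with EGF in BT474 and by 0.09 in BT474R, and its HRG-against-EGF value of -0.52 was not called (adjusted p = 0.277).

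**Figure D4:**
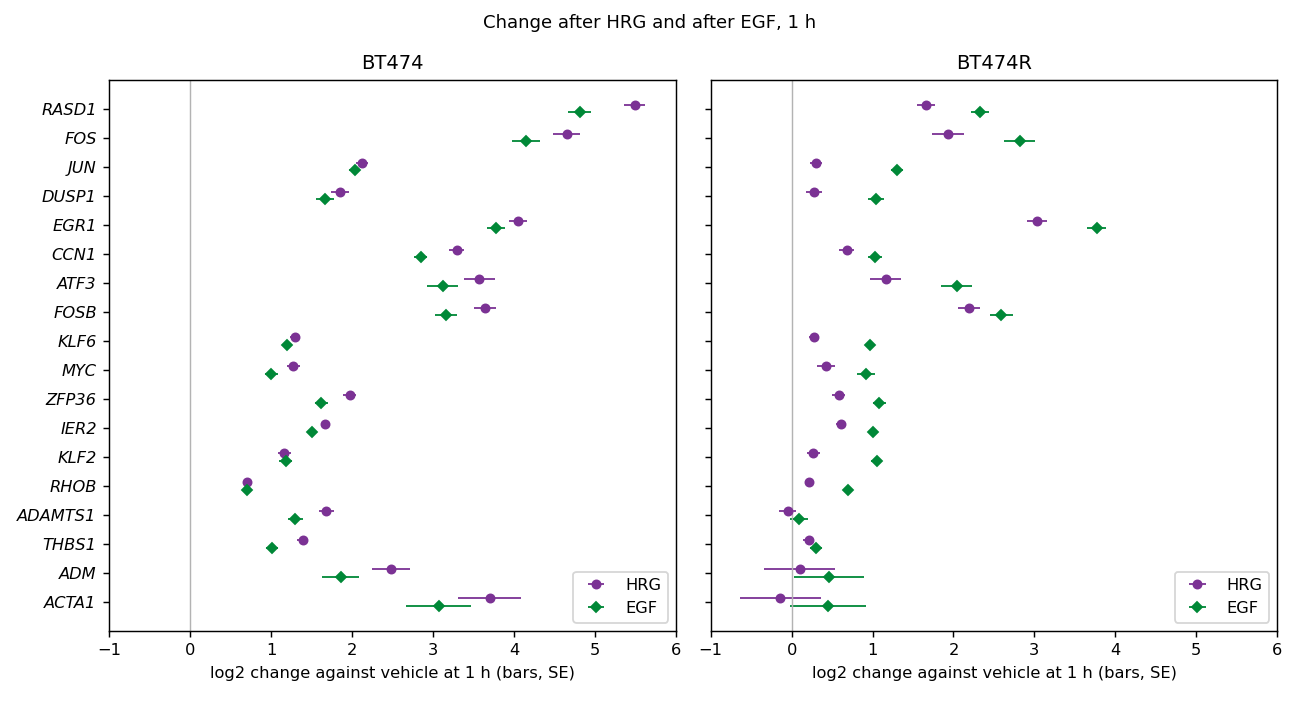
Log2 change against vehicle at 1 h after HRG (purple circles) and EGF (green diamonds) for 18 genes lower in BT474R, in BT474 (left) and BT474R (right), with SE bars. In BT474 the HRG value is at or above the EGF value for most genes, and in BT474R it is below it for all 18, as for JUN (0.30 with HRG, 1.30 with EGF). The 18 genes were called by the HRG values shown, so this order is in part fixed by their choice.

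The difference between the lines was followed to 12 h and 24 h. The change of the interaction from 1 h to 12 h was called higher for 130 genes (0.528%) and lower for 99 (0.402%), and 59 of the 122 were among the 130. That contrast contains the 1 h values by which the 122 were called, so this overlap is in part fixed by their choice. At 12 h the interaction was lower in 16 of the 122 (background 2.91%) and higher in 2 (1.16%), and at 24 h lower in 21 (2.09%) and higher in 4 (1.24%), with other vehicle libraries at each time. HRG at 12 h raised 54 of the 122 in BT474 (13.9% of all genes) and 35 in BT474R (4.14%). For CCN1 the interaction went from -2.61 to 0.45 (adjusted p = 0.0907) and for JUN from -1.82 to -0.06 (adjusted p = 0.861). ADAMTS1 (-0.85), PLK2 (-0.69), DUSP4 (-0.74), FHL2 (-0.99) and ZFP36L2 (-0.41) were still called lower at 12 h. MYC went the other way, with a 12 h change of 0.29 in BT474 and 1.23 in BT474R and an interaction of 0.94 (adjusted p = 0.00101). The MYC level with HRG at 12 h was still far lower in BT474R (6.66 and 6.69 CPM, against 39.7 and 40 CPM in BT474).

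**Figure D5:**
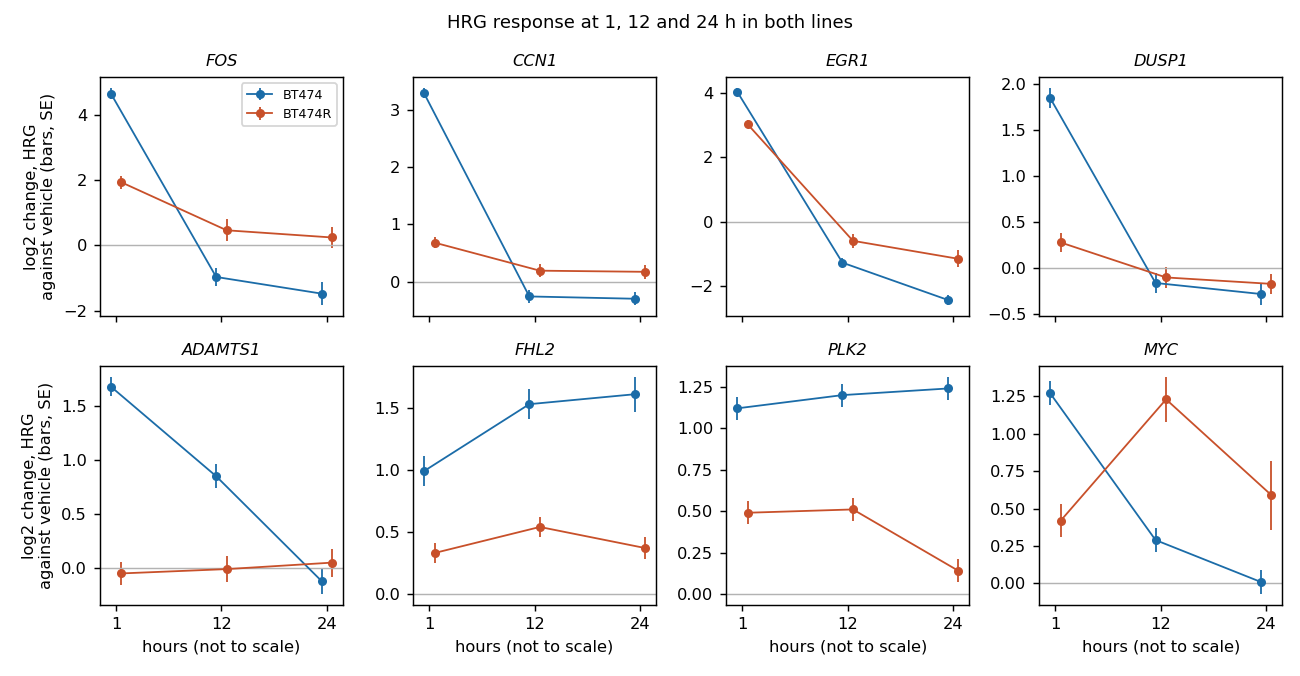
Log2 change of HRG against the vehicle of the same time at 1, 12 and 24 h (not to scale) in BT474 (blue) and BT474R (orange) for 8 genes, with SE bars. For FOS, CCN1 and DUSP1 the gap between the lines is widest at 1 h. The change of EGR1 in BT474 lies below that in BT474R at 24 h. For FHL2 and PLK2 the change stays larger in BT474, and for MYC it is larger in BT474R at 12 h (1.23 against 0.29).

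The 2 HRG libraries of BT474R differed in level. Replicate 1 was higher than replicate 2 in 94 of the 122 genes, by a median of 0.11 on the log2 scale, against 11968 of 24641 genes and a median of 0.00 overall. The same count was 85 of 122 in the BT474 HRG libraries (median 0.03), 78 in the BT474 vehicle libraries (median 0.03) and 43 in the BT474R vehicle libraries (median -0.03). FOS (15.2 and 11.4 CPM), EGR1 (191 and 141 CPM) and EGR2 (16.8 and 9.65 CPM) were examples, and for each the lower and the higher BT474R library both lay far below the BT474 pair. Without replicate 1, 117 genes were lower and 37 higher, and without replicate 2, 90 were lower and 2 higher.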

How the data were processed

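RNA was measured in 40 libraries, 2 in each of 20 groups, and the contrast studied here used 8 of them. Each deposited value is the count of reads on a gene in 1 library, which the authors made from reads trimmed with Trim Galore 0.6.6, aligned to GRCh38.p13 and counted with featureCounts of the Rsubread package. Which annotation was used, whether strand was counted and how reads with several matches were handled are not given in the sources used here, so overlapping or near-identical genes can share reads. Of 44584 names, 24641 had at least 1 count in at least 20 libraries and were tested, 2100 of them repeats of a gene name with a number added (a copy). All columns were assigned through the sample descriptions.

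Counts were fitted in edgeR 4.0.16 under R 4.3.3 (TMM, glmQLFit, glmQLFTest) with 1 mean for each of the 20 groups, so that all 40 libraries shared 1 estimate of the spread. The common dispersion was 0.00209, 0.00121 in BT474 and 0.00306 in BT474R. Replicate counts differed by more than counting noise, with a median chi-square over genes between 0.571 and 1.1 where 0.455 is expected. The script was tested on simulated data. Same-numbered libraries were checked for shared deviations (correlations between -0.09 and 0.03), so the numbers were not taken as pairs. DESeq2 1.42.0, limma 3.58.1 and other filters, controls and libraries left out were alternatives.

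The comparison, the gene lists and the members shown were chosen with earlier results of these data known. Genes were named by this rule, repeats of a name excluded: in each direction the 15 or fewer largest called interactions whose group mean reached 1 CPM in some group, with no overlap of the differences; up to 20 lost genes with the largest BT474 change; from each list the called members and up to 4 with the smallest p; and the 4 ERBB receptors. CCN2, CXCL8, EGR2, EGR3, DUSP6, SPRY4, FOSL1, NR4A3, TPM4 and the genes at the threshold or named only for a promoter were chosen after their values were seen. So was ACTG2. Promoters were those of RefSeq on GRCh38.p14, and 93 of 113 genes lower in BT474R had one; their coordinates are not those of the counts' annotation.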

Additional observations from a re-analysis of the deposited data

Results flagged for a closer look

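A test of the difference between the lines called 122 genes lower and 12 higher in BT474R in their HRG response at 1 h. The test of HRG against EGF between the lines called 34 genes, and that of the 12 h against the 1 h line difference 229.

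By the interaction (log2, BT474R minus BT474), the named genes were ACTA1 (-3.84), RASD1 (-3.83), FOS (-2.72), CCN1 (-2.61), ATF3 (-2.41), ADM (-2.38), EDN1 (-2.37), AREG (-2.10), PTGER4 (-2.01), EGR4 (-1.97), JUN (-1.82), ADAMTS1 (-1.73), LOC100507507 (-1.71), MAFF (-1.64) and DUSP2 (-1.63) on the lower side. On the higher side they were GUCA1B (1.93), MYCN (1.42), RASL11B (1.20), LOC102724488 (1.18), NUAK2 (1.01), LOC107985544 (0.95), PACSIN1 (0.68), ARRDC3 (0.62), SOX9 (0.62), ID2 (0.52) and TXNIP (0.37).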

How the results depend on the processing

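Leaving out each library in turn gave 80 to 154 genes for the interaction (134 with all), with 80 without BT474R vehicle replicate 2, 86 without BT474 vehicle replicate 2 and 89 without BT474 HRG replicate 1, and 154 (117 lower, 37 higher) without BT474R HRG replicate 1. The range was 332 to 391 for HRG in BT474 (542 with all), the lowest without BT474 vehicle replicate 2 (332) and BT474 HRG replicate 1 (344). It was 35 to 64 for HRG in BT474R (68), with 35 and 45 without BT474R vehicle replicates 1 and 2, and 17 to 39 for HRG against EGF (34), with 17 and 20 without BT474R HRG and EGF replicates 2 and 21 and 22 without BT474 HRG and EGF replicates 1. For 12 h against 1 h it was 153 to 233 (229).

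Without a filter on low counts the interaction had 225 genes (162 lower, 63 higher), HRG in BT474R 131, HRG against EGF 90 (61 lower, 29 higher) and 12 h against 1 h 376. With only the libraries compared these were 213 (153 lower, 60 higher), 121, 57 (49 lower, 8 higher) and 562. T0 libraries in place of vehicle gave 397 (323 lower, 74 higher), and ARRDC3 (-0.69), TXNIP (-0.01), RHOB (0.05) and MYC (0.13) changed sign. DESeq2 gave 140 genes for the interaction. The cause of these shifts was not tested. The replicate numbers do not pair the libraries, and a block for the replicate number gave 143 genes, 130 of them among the 134. Nested in line and time point, the block gave 167, and 361 for 12 h against 1 h. Of the 125 called genes with plain names, 57 passed in every setting and 121 kept their sign in every setting.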
